A study of Homo sapiens with 18 samples.

Results

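Glycolysis and hypoxia genes were taken as 40 symbols that cover glucose and lactate carriers, the enzymes between glucose and lactate, the kinases that set glycolytic rate and pyruvate entry, and regulators induced by low oxygen. The deposited table held 37 of the 40 among its 13992 genes, and 36 of these were tested. LDHA, SLC16A1 and CA9 were not analysed here, and ANKRD37, a hypoxia-induced ankyrin repeat gene with 5 to 18 reads per library, was under the expression filter. The member list was drawn up by gene function, with no measured value in its rule, but with earlier results of these data known.

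Messenger RNA had been sequenced in 18 libraries of HMC3 cells, an immortalized wild-type human microglial line, grown in MEM with fetal bovine serum. For 24 h the cells received oxidized low-density lipoprotein (oxLDL), a cholesterol-rich particle that macrophages take up, and the doses were 0 (untreated) and 1 µg/ml, 2.5 and 10 µg/ml, and 50 and 100 µg/ml. Each dose has 3 libraries, and the labels name no vehicle for the untreated dose. All 6 groups share the line and a single batch value in the labels. Whether replicate libraries stem from separate cultures is not stated in the labels, so the p-values here measure only library-to-library spread, part or all of which may be technical. HMC3 is a cell line model of microglia: the macrophage markers CD68 and CD14 had values, while the defining microglia markers CX3CR1, P2RY12, TMEM119, AIF1 and CSF1R were not analysed here. Recovered depths were 13902719 to 37338597 reads per library. The lowest and the highest were both at 100 µg/ml, in replicates 3 and 2.

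Glycolysis turns glucose into pyruvate in the cytosol, and lactate dehydrogenase turns pyruvate into lactate. When oxygen is low, the transcription factor HIF1 escapes the prolyl hydroxylases that mark it for breakdown and raises glucose carriers, most glycolytic enzymes and kinases that keep pyruvate out of mitochondria. Activated microglia and macrophages are known to turn towards glycolysis, and HIF1 takes part in that turn.

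At 100 µg/ml oxLDL most of these genes were close to the untreated level, with a median absolute log2 fold change of 0.08 over the members and over all tested genes. The glucose carriers SLC2A3 and SLC2A1 and the hexokinase HK1 rose with the phosphofructokinase subunit PFKM and the stress gene NDRG1. The phosphofructokinase subunit PFKL, the regulatory kinase PFKFB4 and the pyruvate dehydrogenase kinase PDK1 fell. In limma on log2(FPKM + 0.5), called at a Benjamini-Hochberg adjusted p under 0.05, 8 of 36 members (22.2%) were called, 5 up and 3 down, where 15.5% of all 12127 tested genes were called (7.94% up and 7.51% down). The median log2 fold change of the members was -0.002, and that of all tested genes -0.004. The largest absolute log2 fold change among members was 0.44, in SLC2A3. The count of 8 came down to 5 when replicate 1, 2 or 3 at 0 µg/ml or replicate 3 at 100 µg/ml was left out.

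**Figure D1:**
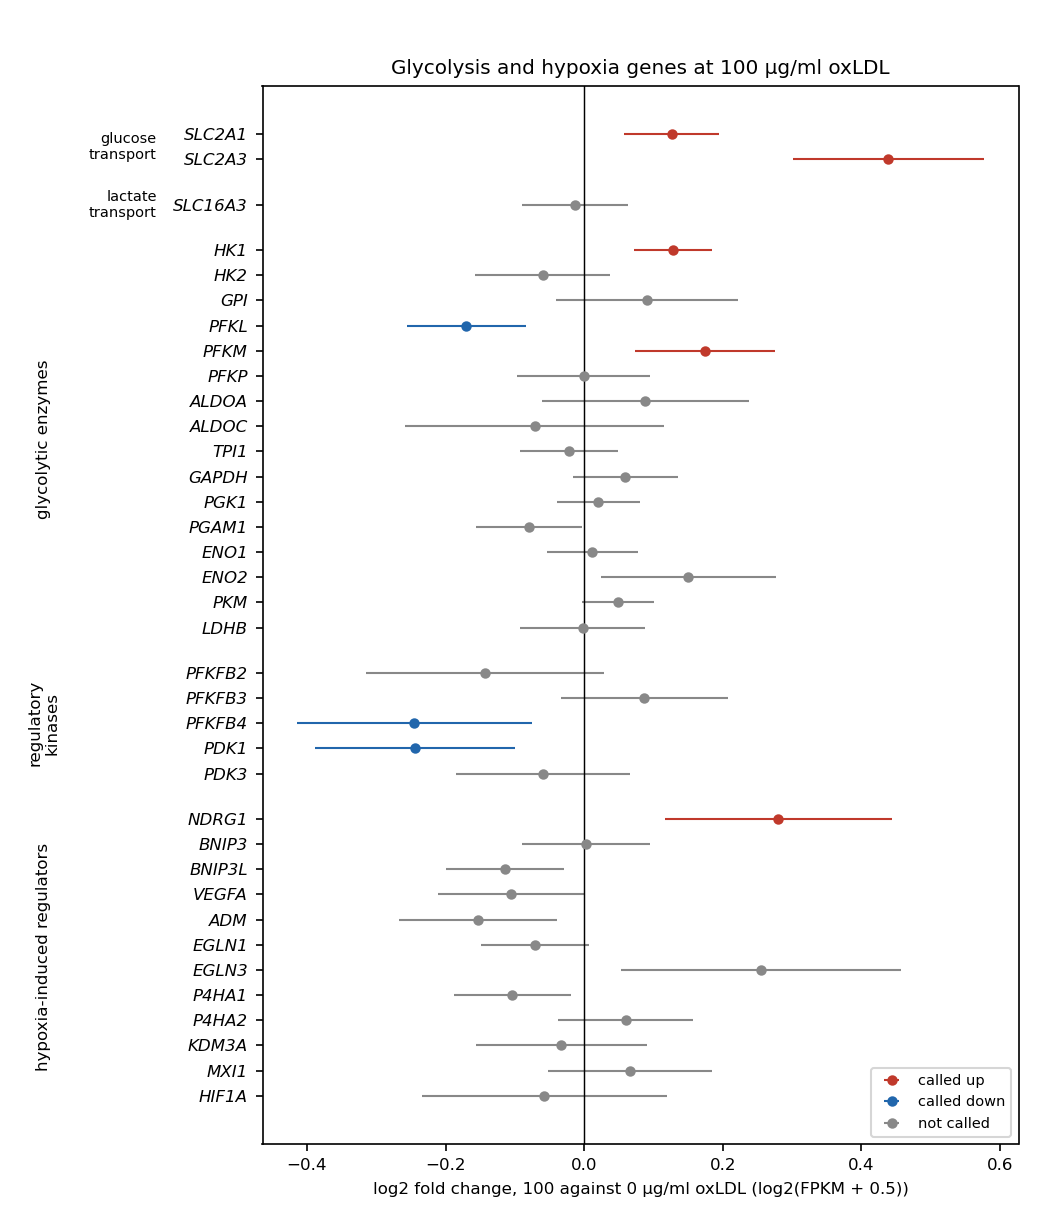
Log2 fold change of each of the 36 tested members at 100 against 0 µg/ml oxLDL (x axis, log2(FPKM + 0.5) scale), grouped by role. Points are limma estimates and bars 95% confidence intervals from 3 libraries a dose. SLC2A3 lies farthest from 0 at 0.44, and 28 of 36 members, in grey, were not called.

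The lower doses gave few calls. At 1, 2.5 and 10 µg/ml, each set against 0 µg/ml, limma called 0 members, with 1, 0 and 2 members at an unadjusted p under 0.05, and limma-voom on recovered reads also called 0 at each. The share of all tested genes called was 0% at 1 and 2.5 µg/ml and 0.0412% at 10 µg/ml (0.033% up and 0.00825% down). At 50 µg/ml only SLC2A3 was called among the members (2.8%), against 7.47% of all tested genes (3.78% up and 3.69% down). That count was 4 by limma-voom, 3 with a replicate block, 2 when only these 2 doses were fitted, and 0 to 2 when single libraries were left out. SLC2A3 was also the only member called between 50 and 10 µg/ml, where 2.61% of all tested genes were called (1.39% up and 1.22% down). That call, at a log2 fold change of 0.28 and an adjusted p of 0.0309, was lost without replicate 2 at 10 µg/ml or without any single library at 50 µg/ml (adjusted p from 0.071 to 0.173), and the count there ran from 0 to 4 with single libraries left out, 4 being without replicate 3 at 10 µg/ml. Between 100 and 50 µg/ml limma called 0 members, with 3 at an unadjusted p under 0.05 and 0 by limma-voom, and 0.28% of all tested genes were called (0.223% up and 0.0577% down).

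A slope fitted on log2(dose + 1) over all 18 libraries called 14 of 36 members (38.9%), 6 up and 8 down, against 25.6% of all tested genes (13% up and 12.6% down). Rising with dose were SLC2A3, SLC2A1, HK1, PFKM, ENO2 and NDRG1. Falling were PFKL, PGAM1, PFKFB4, PDK1, BNIP3L, ADM, EGLN1 and P4HA1. The steepest was SLC2A3 at 0.069 log2 units per doubling of (dose + 1) (SE 0.010, adjusted p = 5.35e-05). The steepest falls were those of PFKFB4 (-0.041, SE 0.011, adjusted p = 0.00737) and PDK1 (-0.034, SE 0.008, adjusted p = 0.00263). The EGLN1 slope lost its call in 13 of 25 other settings, among them without any single library at 1 or 100 µg/ml, replicate 1 or 2 at 2.5 µg/ml, or replicate 1 or 3 at 10 or 50 µg/ml (adjusted p at most 0.143). The PGAM1 slope lost it in 6, without any single library at 1 µg/ml, without replicate 1 or 3 at 100 µg/ml and with median-of-ratios scaling (at most 0.134).

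**Figure D2:**
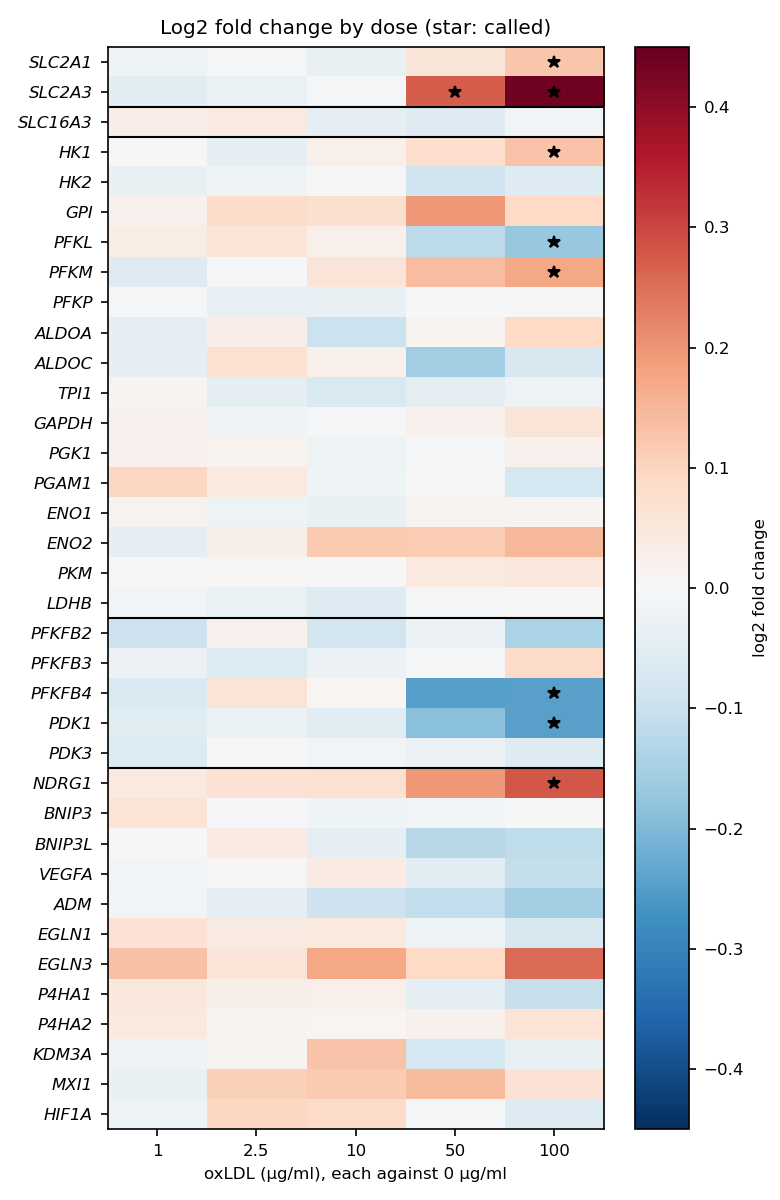
Log2 fold change of each tested member (rows, ordered by role) at 1, 2.5, 10, 50 and 100 µg/ml oxLDL, each against 0 µg/ml. Colour gives the log2 fold change and a star marks a limma call. The 9 stars lie at 50 and 100 µg/ml, and SLC2A3 is the member with a star at both.

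Promoter windows of these genes were read from RefSeq (GRCh38.p14), from 250 bases before to 50 after an annotated start, and 32 of the 37 listed members had at least 1 window. The core letters of the hypoxia response element, ACGTG or GCGTG on either strand, were present in 40 of 61 member windows (65.6%), in 60.5% of windows of all listed genes and in 48.4% of all 35116 windows. Counted by gene, 29 of 32 members (90.6%) and 69.6% of listed genes had a core in at least 1 window, and genes with several starts have more windows. For ACGTG alone the shares were 37.7% of member windows and 25.2% of windows of all listed genes. By gene they were 59.4% of member genes and 31.8% of listed genes. ACGTG includes each CACGTG, the E-box, which reads the same on both strands and so counts as 2. Windows with the antioxidant response element core TGACNNNGC made up 9.8% of member windows and 13.3% of all windows. Members with most cores in a window were HK2 and BNIP3 with 6 each, ALDOC with 5 and PGK1 with 4, and none of the 4 was called at 100 µg/ml. Among called genes with a window, SLC2A1, HK1, PFKL, PFKM and PFKFB4 held at most 1 core in a window and PDK1 held 2. The windows of 4 of these 6 genes (SLC2A1, PFKL, PFKFB4 and PDK1) and of the uncalled HK2, BNIP3 and PGK1 are shown so that the windows can be set beside the values that follow. Their positions are chr1:42958819-42959118, minus strand (SLC2A1), chr21:44299803-44300102, plus strand (PFKL), chr3:48556754-48557053, minus strand (PFKFB4) and chr2:172555840-172556139, plus strand (PDK1). The others are chr2:74834920-74835219, plus strand (HK2), chr10:131981874-131982173, minus strand (BNIP3) and chrX:78103998-78104297, plus strand (PGK1). The windows of PFKFB4, PDK1 and HK2 belong to a start inside the gene. Capitals mark the cores, read 5′ to 3′ along the gene.
SLC2A1: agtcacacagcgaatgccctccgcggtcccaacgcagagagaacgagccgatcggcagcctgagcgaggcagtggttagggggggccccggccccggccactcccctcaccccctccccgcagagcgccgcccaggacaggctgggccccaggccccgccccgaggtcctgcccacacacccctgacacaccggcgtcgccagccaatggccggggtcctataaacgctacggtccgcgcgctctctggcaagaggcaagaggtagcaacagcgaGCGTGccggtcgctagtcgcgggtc
PFKL: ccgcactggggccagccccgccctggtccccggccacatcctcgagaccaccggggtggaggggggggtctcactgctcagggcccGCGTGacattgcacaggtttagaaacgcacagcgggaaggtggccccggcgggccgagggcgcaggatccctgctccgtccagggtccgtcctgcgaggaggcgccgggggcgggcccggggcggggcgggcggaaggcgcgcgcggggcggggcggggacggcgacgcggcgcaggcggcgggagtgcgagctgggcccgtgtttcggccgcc
PFKFB4: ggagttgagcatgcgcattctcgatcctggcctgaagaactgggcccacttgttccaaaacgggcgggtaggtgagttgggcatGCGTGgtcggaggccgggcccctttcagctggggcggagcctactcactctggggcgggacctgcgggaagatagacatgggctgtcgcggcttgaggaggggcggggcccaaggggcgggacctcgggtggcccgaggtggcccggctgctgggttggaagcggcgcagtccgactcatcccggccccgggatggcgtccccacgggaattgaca
PDK1: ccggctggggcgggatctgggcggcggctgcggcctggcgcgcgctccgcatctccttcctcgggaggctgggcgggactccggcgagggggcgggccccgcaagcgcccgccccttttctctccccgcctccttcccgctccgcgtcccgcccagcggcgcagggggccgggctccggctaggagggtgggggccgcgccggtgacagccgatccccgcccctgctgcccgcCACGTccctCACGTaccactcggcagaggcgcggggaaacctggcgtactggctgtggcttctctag
HK2: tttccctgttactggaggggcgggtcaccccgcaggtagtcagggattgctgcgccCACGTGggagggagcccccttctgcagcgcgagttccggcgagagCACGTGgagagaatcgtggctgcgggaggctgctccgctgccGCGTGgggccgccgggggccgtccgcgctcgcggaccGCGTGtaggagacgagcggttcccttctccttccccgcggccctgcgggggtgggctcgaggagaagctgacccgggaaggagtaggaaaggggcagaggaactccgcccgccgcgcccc
BNIP3: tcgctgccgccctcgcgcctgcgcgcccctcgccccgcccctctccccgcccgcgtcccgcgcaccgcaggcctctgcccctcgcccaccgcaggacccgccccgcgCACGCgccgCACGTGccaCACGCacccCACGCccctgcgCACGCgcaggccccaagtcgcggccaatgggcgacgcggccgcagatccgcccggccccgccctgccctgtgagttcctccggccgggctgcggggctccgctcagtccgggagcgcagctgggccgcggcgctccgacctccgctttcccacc
PGK1: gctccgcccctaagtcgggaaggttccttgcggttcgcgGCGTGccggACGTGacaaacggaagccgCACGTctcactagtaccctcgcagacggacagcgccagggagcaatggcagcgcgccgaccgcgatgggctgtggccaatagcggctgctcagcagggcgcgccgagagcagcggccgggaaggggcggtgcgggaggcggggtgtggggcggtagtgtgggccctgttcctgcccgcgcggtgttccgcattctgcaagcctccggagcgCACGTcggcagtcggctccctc
Counted from the start, the SLC2A1 core begins at 25, the PDK1 cores at -17 and -8, and those of PFKL and PFKFB4 at -164 and -166. A match of letters is not a shown binding site.

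The member glucose carriers, SLC2A3 and SLC2A1, were called up at 100 µg/ml. SLC2A3 encodes GLUT3, a high-affinity carrier (chromosome 12, 7919230 to 7936187). Its FPKM was 8.80, 9.13 and 8.28 at 100 µg/ml, against 6.55, 5.82 and 6.58 at 0 µg/ml. All 3 treated libraries lay above all 3 untreated ones, with a log2 fold change of 0.44 (SE 0.065, adjusted p = 0.00022). At 50 µg/ml it was 7.54, 7.82 and 7.81 FPKM, also above every untreated library (0.27, SE 0.065, adjusted p = 0.0177). From 0 to 10 µg/ml the dose means lay between 6.07 and 6.32 FPKM. At 50 µg/ml the gene was no longer called when replicate 2 of the untreated libraries (adjusted p = 0.0804) or replicate 2 or 3 of that dose (0.0582 and 0.0629) was left out. SLC2A3 has a near-identical paralog, SLC2A14, and the reads of such copies cannot be assigned with certainty.

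SLC2A1 encodes GLUT1, the carrier of basal glucose uptake (chromosome 1, 42925353 to 42958868). It had 43.9, 44.1 and 43.2 FPKM at 100 µg/ml, against 40.4, 39.4 and 40.2 at 0 µg/ml. The groups did not overlap, and the rise was 9.27% of the mean (log2 fold change 0.13, SE 0.032, adjusted p = 0.0127). With untreated replicate 2 left out its adjusted p was 0.0519. At untreated levels SLC2A1 had 40.02 ± 0.50 FPKM and SLC2A3 6.32 ± 0.43 (SD, n = 3). On this per-length scale SLC2A3 was 0.200 of SLC2A1 at 100 µg/ml and 0.158 in untreated cells. SLC16A3, the lactate exporter MCT4 and the only lactate carrier analysed, had 47.1, 49.1 and 46.2 FPKM at 100 µg/ml, against 49.2, 47.7 and 46.8 at 0 µg/ml. Its groups overlapped, and the 95% interval of its log2 fold change ran from -0.09 to 0.06.

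**Figure D3:**
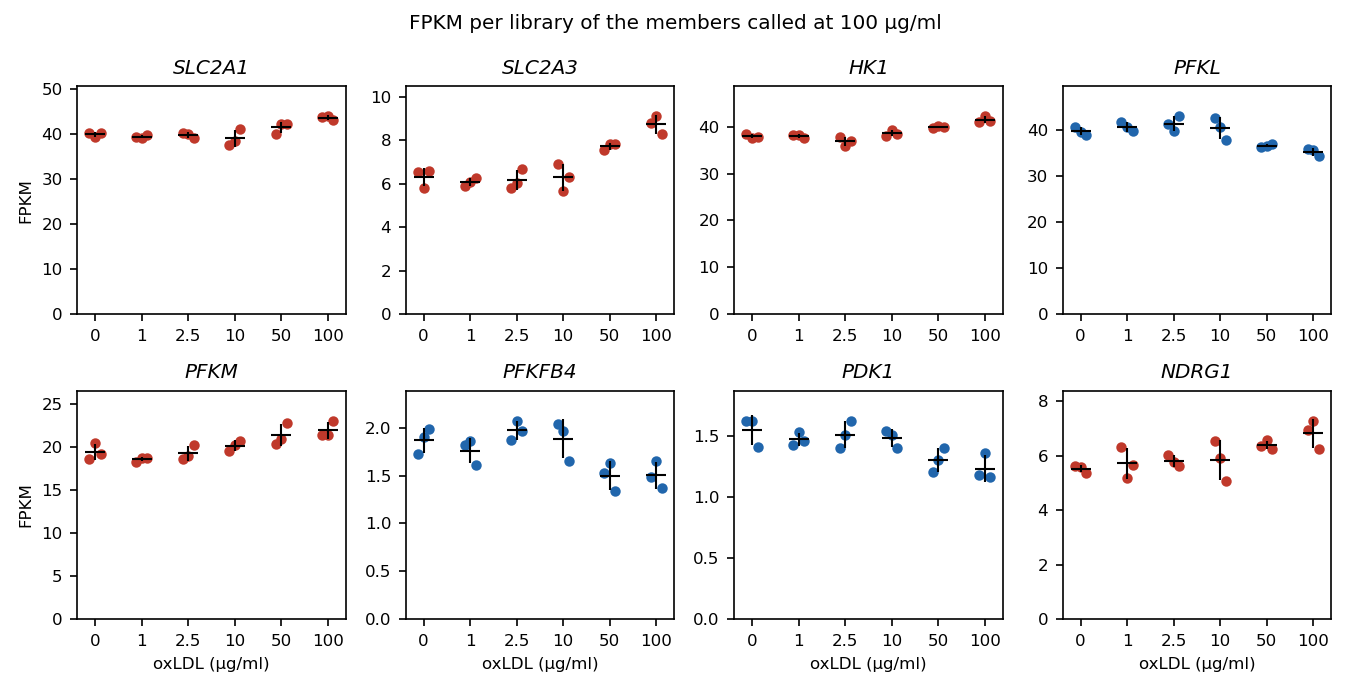
FPKM of the 8 members called at 100 µg/ml in each of the 18 libraries (y axis, from 0) by oxLDL dose (x axis, µg/ml). Points are libraries, dashes dose means and bars the SD of 3 libraries. Red genes rose and blue genes fell at 100 µg/ml, and SLC2A3 reaches 8.28 to 9.13 FPKM there.

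Among the glycolytic enzymes 16 were tested, of which 2 rose, 1 fell and 13 were not called at 100 µg/ml, with a median log2 fold change of 0.02. Over all tested genes 15.5% were called at that dose. Hexokinases trap glucose in the cell by phosphorylation. HK1, the form of most tissues (chromosome 10, 69270000 to 69401882), had 41.0, 42.3 and 41.2 FPKM at 100 µg/ml, against 38.4, 37.6 and 37.9 at 0 µg/ml. The groups did not overlap (log2 fold change 0.13, SE 0.027, adjusted p = 0.00319), and at 50 µg/ml the libraries were also above the untreated ones at 39.8 to 40.2 FPKM without a call (adjusted p = 0.0989). HK2, the inducible form and a known HIF1 target, had 6.17, 6.64 and 6.84 FPKM at 100 µg/ml, against 7.14, 6.66 and 6.73 at 0 µg/ml. Those groups overlapped (log2 fold change -0.06, adjusted p = 0.449).

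Phosphofructokinase commits sugar to glycolysis and is built from the products of PFKL, PFKM and PFKP. PFKL, the liver type subunit (chromosome 21, 44300053 to 44327373), had 35.8, 35.7 and 34.3 FPKM at 100 µg/ml, against 40.7, 39.6 and 38.9 at 0 µg/ml. It was lower in all 3 treated libraries (log2 fold change -0.17, SE 0.040, adjusted p = 0.00804). PFKM, the muscle type subunit (chromosome 12, 48105353 to 48146404), had 21.4, 21.4 and 23.1 FPKM at 100 µg/ml, against 18.6, 20.4 and 19.1 at 0 µg/ml. It was higher in all 3 treated libraries (0.17, SE 0.048, adjusted p = 0.0198). PFKM was no longer called when untreated replicate 1 or 3 (adjusted p = 0.0992 and 0.0629) or replicate 3 at 100 µg/ml (0.107) was left out, and 8.6% of its exon bases lie opposite exons of SENP1. PFKP, the platelet type subunit and the most abundant of the 3, averaged 72.7 ± 3.4 FPKM at 100 µg/ml and 72.7 ± 1.9 in untreated cells.

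The abundant enzymes of lower glycolysis stayed close to their untreated level. GAPDH, the dehydrogenase often used as a reference transcript, ranked 6 of 13992 genes at 0 µg/ml. It had 3451, 3400 and 3330 FPKM at 100 µg/ml, against 3234, 3178 and 3360 at 0 µg/ml, with overlapping groups (log2 fold change 0.06, SE 0.036, adjusted p = 0.312). ENO1, an enolase, averaged 1025 ± 10 FPKM at 100 µg/ml and 1017 ± 21 in untreated cells. TPI1, which interconverts triose phosphates, averaged 781 ± 18 and 793 ± 15 FPKM at those doses. PGK1, phosphoglycerate kinase, averaged 182 ± 1.4 FPKM at 100 µg/ml and 179 ± 2.2 in untreated cells, and PGAM1, phosphoglycerate mutase, 320 ± 16 and 338 ± 7.8. LDHB, the lactate dehydrogenase subunit of oxidative tissues, averaged 629 ± 16 FPKM at 100 µg/ml and 630 ± 14 in untreated cells. For TPI1, GAPDH, PGK1, PGAM1, ENO1, PKM and LDHB the 95% intervals of the log2 fold change all lay between -0.16 and 0.14. PKM, the pyruvate kinase, had 524 to 540 FPKM at 100 µg/ml, above the 509 to 519 at 0 µg/ml, but was not called (0.05, SE 0.025, adjusted p = 0.212). ENO2, the neuronal enolase, averaged 15.3 ± 1.1 FPKM at 100 µg/ml and 13.7 ± 0.79 in untreated cells (0.15, SE 0.060, adjusted p = 0.106), and had a called slope of 0.026 per log2 unit of dose + 1 (adjusted p = 0.00794).

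The less abundant enzymes GPI, ALDOA and ALDOC were not called either, with log2 fold changes of 0.09, 0.09 and -0.07 (SE 0.062, 0.070 and 0.089). GPI, the glucose phosphate isomerase, averaged 7.99 ± 0.37 FPKM at 100 µg/ml and 7.48 ± 0.63 in untreated cells, and ALDOA, the main aldolase of most cells, 7.18 ± 0.66 and 6.72 ± 0.58. ALDOC, the brain form of aldolase, averaged 1.85 ± 0.17 and 1.96 ± 0.061. These levels are far under those of TPI1 or GAPDH. In GENCODE 29, 42.3% of ALDOA exon bases are shared with AC093512.2 on the same strand, 33.4% of those of LDHB with AC010197.2 and 5.1% of those of GPI with AC092073.1. How reads in shared exons were counted is not given in the sources used here, and their part in these levels was not tested. GAPDH, BNIP3 and PGAM1 have 62, 39 and 13 pseudogenes named after them in that annotation, so their reads may be split with near copies. Summed over the 16 enzymes, FPKM made up 1.75 ± 0.017% of all FPKM at 100 µg/ml and 1.71 ± 0.007% in untreated cells. These shares did not overlap, and the difference of 0.038 percentage points had an exact two-sided permutation p of 0.1, the smallest that 3 against 3 libraries allow. The sums themselves overlapped, at 6958 to 7192 FPKM at 100 µg/ml and 6826 to 7092 in untreated cells. GAPDH, not called, was the largest part, with means of 3394 and 3257 FPKM at those doses.

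The regulatory kinases had 2 falls and 0 rises among 5 tested at 100 µg/ml, with a median log2 fold change of -0.14. Of all tested genes 7.51% were called down and 7.94% up there. PFKFB4 makes and breaks fructose 2,6-bisphosphate, the activator of phosphofructokinase (chromosome 3, 48517684 to 48563136). Its FPKM was 1.48, 1.65 and 1.37 at 100 µg/ml, against 1.73, 1.90 and 1.98 at 0 µg/ml, from 111 to 360 reads over the series. The groups did not overlap (log2 fold change -0.24, SE 0.080, adjusted p = 0.0484). This call is at the threshold and was lost in 9 of 14 other settings, among them without any single untreated library and without replicate 1 or 3 at 100 µg/ml (adjusted p from 0.0505 to 0.19). PFKFB3, the relative with the highest kinase activity, averaged 10.8 ± 0.25 FPKM at 100 µg/ml and 10.2 ± 0.47 in untreated cells (0.09, SE 0.057, adjusted p = 0.354), and PFKFB2, the heart form, 1.30 ± 0.10 and 1.49 ± 0.19 (-0.14, adjusted p = 0.271).

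PDK1 inhibits pyruvate dehydrogenase and so holds pyruvate back from mitochondria (chromosome 2, 172555373 to 172724312). It had 1.18, 1.36 and 1.16 FPKM at 100 µg/ml, against 1.62, 1.63 and 1.41 at 0 µg/ml. The treated libraries were all lower (log2 fold change -0.24, SE 0.068, adjusted p = 0.0222). PDK1 was no longer called when untreated replicate 1 or 2 (adjusted p = 0.0906 and 0.0848) or replicate 1 or 3 at 100 µg/ml (0.0776 and 0.0932) was left out, or when only these 2 doses were fitted (0.081). PDK3, an isoform of the same kinase, averaged 1.36 ± 0.019 FPKM at 100 µg/ml and 1.44 ± 0.032 in untreated cells and was not called (-0.06, adjusted p = 0.577).

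Among the 12 tested hypoxia-induced regulators 1 rose, 0 fell and 11 were not called by limma at 100 µg/ml, with a median log2 fold change of -0.05. The share called over all tested genes was 15.5%. NDRG1, a stress gene raised by low oxygen and by iron loss (chromosome 8, 133237175 to 133297252), had 6.94, 7.29 and 6.24 FPKM at 100 µg/ml, against 5.62, 5.58 and 5.37 at 0 µg/ml. The groups did not overlap (log2 fold change 0.28, SE 0.077, adjusted p = 0.0206). NDRG1 was no longer called when untreated replicate 3 (adjusted p = 0.0692) or replicate 1 or 2 at 100 µg/ml (0.0623 and 0.0904) was left out. VEGFA, the angiogenic growth factor and a standard HIF1 target, had 9.88, 10.2 and 10.3 FPKM at 100 µg/ml, against 11.2, 11.1 and 10.4 at 0 µg/ml. Every treated library was under every untreated one, without a call (-0.11, SE 0.050, adjusted p = 0.177).

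ADM, the vasodilator peptide adrenomedullin, was the most abundant hypoxia-induced member and averaged 128 ± 7.8 FPKM at 100 µg/ml and 142 ± 4.3 in untreated cells (-0.15, SE 0.054, adjusted p = 0.0661). BNIP3L, a receptor for the removal of mitochondria, averaged 37.2 ± 1.7 and 40.3 ± 0.67 FPKM at those doses (-0.11, SE 0.040, adjusted p = 0.0671). P4HA1, a collagen prolyl hydroxylase subunit, averaged 44.9 ± 2.8 and 48.3 ± 1.1 (-0.10, SE 0.040, adjusted p = 0.0921). EGLN1, the main prolyl hydroxylase that marks HIF1 for breakdown, averaged 15.1 ± 0.28 and 15.9 ± 0.25 (-0.07, adjusted p = 0.226). For these 4 genes the 3 libraries at 100 µg/ml lay below the 3 at 0 µg/ml, and the dose slope was called down, at -0.022, -0.023, -0.017 and -0.014 (adjusted p = 0.00855, 0.00198, 0.0172 and 0.0477). With replicate 3 at 100 µg/ml left out the P4HA1 slope was not called (adjusted p = 0.0669), and 9.0% of BNIP3L exon bases lie opposite other exons, mostly those of PNMA2.

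EGLN3 is the prolyl hydroxylase most strongly raised by low oxygen in many cells. It had 0.846, 0.909 and 1.04 FPKM at 100 µg/ml, against 0.629, 0.698 and 0.768 at 0 µg/ml. The groups did not overlap, but EGLN3, with 28 to 92 reads per library over the series, was not called (0.25, SE 0.096, adjusted p = 0.0858). HIF1A, the oxygen-regulated subunit of HIF1, which is controlled mainly as a protein, had 34.8, 37.8 and 36.1 FPKM at 100 µg/ml, against 38.7, 39.8 and 34.6 at 0 µg/ml. Its groups overlapped, and the 95% interval of the log2 fold change ran from -0.23 to 0.12. BNIP3, a partner of BNIP3L, averaged 71.8 ± 1.1 FPKM at 100 µg/ml and 71.7 ± 2.0 in untreated cells (0.003, SE 0.044). P4HA2, the relative of P4HA1, averaged 13.7 ± 0.18 FPKM at 100 µg/ml and 13.1 ± 0.41 in untreated cells, KDM3A, a histone demethylase, 5.80 ± 0.19 and 5.95 ± 0.47, and MXI1, a MYC antagonist, 3.81 ± 0.076 and 3.61 ± 0.11. Their log2 fold changes of 0.06, -0.03 and 0.07 were not called. The groups of P4HA2 and MXI1 did not overlap, with the treated libraries higher. P4HA2 had 13.51 to 13.84 FPKM at 100 µg/ml, against 12.67 to 13.44 at 0 µg/ml. MXI1 had 3.738 to 3.889 FPKM at 100 µg/ml, against 3.516 to 3.734 at 0 µg/ml. ANKRD37, which was not tested, averaged 0.320 ± 0.061 FPKM at 100 µg/ml and 0.234 ± 0.051 in untreated cells.

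Counted without the test, 18 of 36 members (50%) had all 3 libraries at 100 µg/ml on one side of all 3 at 0 µg/ml, 9 above and 9 below. This held for 33.4% of all tested genes (16.5% above and 16.9% below). At 50 µg/ml it was 11 of 36 members (30.6%; 5 above and 6 below) and 28.2% of all tested genes (14.9% above and 13.3% below).

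Ratios of related genes within a library do not depend on the library total. Of 10 pairs of isozymes or paralogs, the ratio of FPKM at 100 µg/ml did not overlap that at 0 µg/ml in 8, each with an exact two-sided permutation p of 0.1, the smallest possible, and 0.125 after Benjamini-Hochberg adjustment over the pairs. For single genes the corresponding share was the 33.4% given above, which is not a background for pairs. No share over other pairs of genes was computed. HK2:HK1, SLC2A3:SLC2A1, PFKP:PFKL, PDK3:PDK1 and PFKFB4:PFKFB3 each hold a gene called at 100 µg/ml, so the count of 8 partly repeats those calls. Of the ratios that were lower, HK2:HK1 averaged 0.158 ± 0.008 at 100 µg/ml and 0.180 ± 0.0048 in untreated cells, and PFKFB4:PFKFB3 0.139 ± 0.016 and 0.184 ± 0.019. The ratio EGLN3:EGLN1 averaged 0.0617 ± 0.0076 at 100 µg/ml and 0.0440 ± 0.0049 in untreated cells. P4HA2:P4HA1, BNIP3:BNIP3L, PDK3:PDK1, PFKP:PFKL and SLC2A3:SLC2A1 were also higher at 100 µg/ml, by 0.12 to 0.34 on the log2 scale. ALDOC:ALDOA and ENO2:ENO1 overlapped (exact p = 0.2 and 0.3).

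The make-up of phosphofructokinase was compared by shares of summed FPKM, chosen after its values were seen. PFKL made up 27.05%, 27.23% and 27.18% of the summed FPKM of PFKP, PFKL and PFKM at 100 µg/ml, against 30.73%, 30.32% and 29.39% at 0 µg/ml. PFKM made up 16.13%, 16.32% and 18.29% at 100 µg/ml, against 14.04%, 15.65% and 14.46% at 0 µg/ml. The shares of PFKL and of PFKM did not overlap between these doses and that of PFKP did. The exact two-sided permutation p was 0.1 for PFKL and for PFKM, the smallest that 3 against 3 libraries allow, and 0.5 for PFKP. As the shares were chosen after the values were seen, these p-values are a description only.

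**Figure D4:**
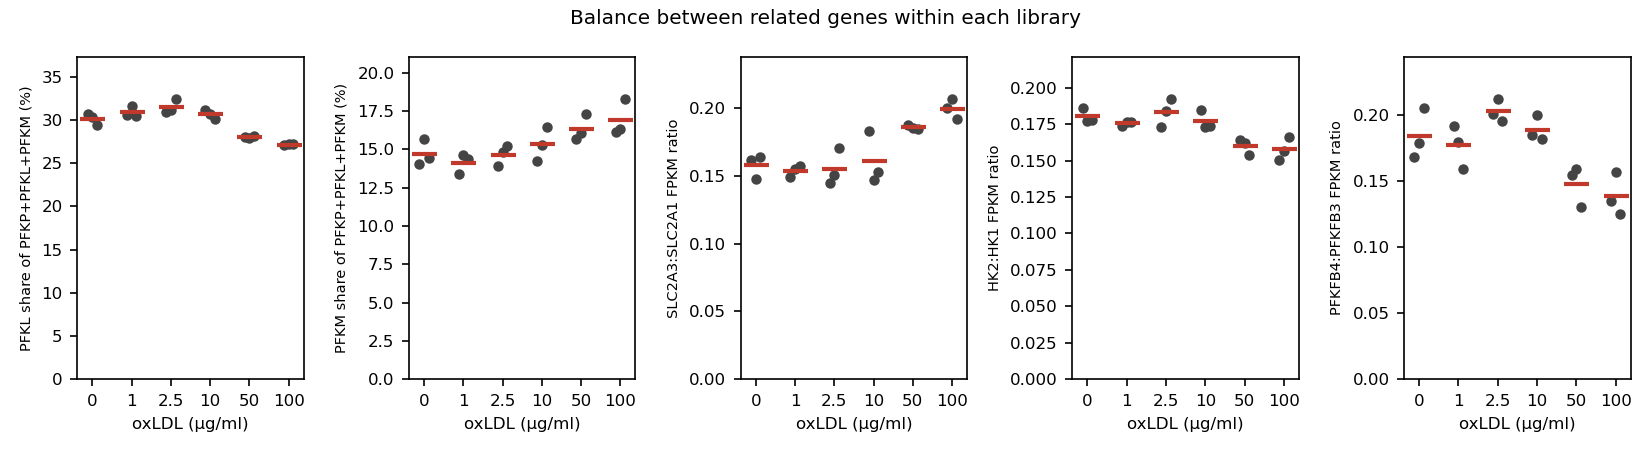
Share of PFKL and PFKM in the summed FPKM of the phosphofructokinase genes (percent) and the FPKM ratios SLC2A3:SLC2A1, HK2:HK1 and PFKFB4:PFKFB3 in each library (points, y axes from 0) by oxLDL dose (x axis, µg/ml). Red dashes are means of 3 libraries. The PFKL share lies at 27.05% to 27.23% at 100 µg/ml, under every untreated library.

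Further genes of the pathway changed in both directions at 100 µg/ml, where 15.5% of all tested genes were called. Of 15 tested enzymes of glycolysis and glycogen 2 rose and 2 fell. HKDC1, a hexokinase-like gene, averaged 0.869 ± 0.071 FPKM at 100 µg/ml and 0.365 ± 0.056 in untreated cells (log2 fold change 0.66, adjusted p = 7.54e-05), and GBE1, the glycogen branching enzyme, rose too (0.17). GYS1, a glycogen synthase, fell to 11.1 ± 0.44 FPKM at 100 µg/ml, against 13.8 ± 0.77 at 0 µg/ml (-0.30), with PGM1, which links glycogen to glycolysis (-0.20). Of 12 genes of pyruvate entry 0 rose and 3 fell: PC, pyruvate carboxylase, averaged 3.32 ± 0.034 FPKM at 100 µg/ml and 4.49 ± 0.059 in untreated cells (-0.39, adjusted p = 0.000122), and the pyruvate dehydrogenase subunits PDHB (-0.16) and DLD (-0.12) were lower by less. Of 3 further carriers SLC2A8 fell (-0.16, adjusted p = 0.0259), and the chaperones of lactate carriers BSG and EMB were not called.

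Among 13 HIF factors and their regulators 1 rose and 1 fell at 100 µg/ml, where 7.94% of all tested genes were called up and 7.51% down. EPAS1, which encodes HIF2-alpha, averaged 10.2 ± 0.37 FPKM at 100 µg/ml and 7.30 ± 0.45 in untreated cells (log2 fold change 0.45, SE 0.075, adjusted p = 0.000549). CITED2, which competes with HIF1 for its coactivators, averaged 60.9 ± 3.2 FPKM at 100 µg/ml and 78.0 ± 2.6 in untreated cells (-0.36, adjusted p = 0.000245). Of 27 other HIF targets 5 rose and 6 fell, with a median log2 fold change of 0.01, beside the same shares over all tested genes. ANGPTL4, a lipoprotein lipase inhibitor also induced through PPAR factors, averaged 8.70 ± 0.94 FPKM at 100 µg/ml and 0.228 ± 0.077 in untreated cells. STC2 (0.27), a secreted glycoprotein, and LOX (0.34), which crosslinks collagen, rose too, and ZNF395 fell (-0.41). The other called genes of this list, named after their values were seen, were JMJD6 (0.15) and PLOD2 (0.14), which rose, and EFNA1 (-0.53), MIR210HG (-0.46), BHLHE40 (-0.42), PPFIA4 (-0.34) and AK4 (-0.15), which fell. TXNIP, which restrains glucose uptake, averaged 14.7 ± 1.4 FPKM at 100 µg/ml and 18.8 ± 1.7 in untreated cells (-0.34, adjusted p = 0.00846), and MYC was higher (0.15, adjusted p = 0.0138).

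Some genes used as markers of other cell types also differed between the doses. The 8 listed pericyte and fibroblast markers of 12 summed to 479 to 541 FPKM at 100 µg/ml and 658 to 715 in untreated cells, with COL1A1, THY1 and PDGFRB called down and the other 4 of 7 tested not called. Over all tested genes 7.51% were called down at that dose. COL1A1 alone averaged 356 ± 20 FPKM at 100 µg/ml and 496 ± 25 in untreated cells. Of the macrophage markers, CD14 averaged 0.630 ± 0.23 FPKM at 100 µg/ml and 1.08 ± 0.098 in untreated cells and was called down (log2 fold change -0.50, adjusted p = 0.0244), and CD68 averaged 15.0 ± 0.68 and 12.3 ± 0.28 without a call (0.28, adjusted p = 0.0512). Of 9 neuron, astrocyte and oligodendrocyte markers 4 were listed and summed to 1.999 to 2.254 and 1.80 to 2.11 FPKM at those doses, and of 6 red blood cell and endothelial markers only VWF was listed, at under 0.1 FPKM. Their part in the member results was not tested. The labels name a single cell line, and in these bulk libraries fewer cells expressing a gene and less RNA per cell cannot be told apart.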

How the data were processed

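FPKM (fragments scaled by transcript length and library total) of 13992 genes in 18 libraries were used as deposited by the authors. Per the submitters' processing notes, HISAT2 2.0.5, featureCounts, DESeq2 and the build hg38 were used, with roles not stated; annotation release and strand setting are not given in the sources used here. After each library was divided by a scale factor estimated from the values, the FPKM of each gene were whole multiples of 1 step. Read numbers could thus be recovered within 0.05 reads for 13992 genes. The smallest whole numbers that fit the values were taken, and the sources do not tell reads from fragments. They give depth and a limma-voom alternative, and counting error is the lower limit of each value's error.

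The 12127 genes that reached an FPKM of 0.5 in 3 or more libraries were tested as log2(FPKM + 0.5), a scale that understates changes of low genes. Limma 3.58.1 (R 4.3.3) fitted 1 mean per dose with a variance trend. The Benjamini-Hochberg adjustment of two-sided p-values ran over all tested genes, also for the slope on log2(dose + 1). The fit was also run on simulated counts with a common spread setting for all genes, a check of the code and not of these data. SD are over 3 libraries and SE are limma's. Isozyme ratios, the summed enzyme share and the phosphofructokinase shares used exact permutation. Alternatives were other pseudocounts (0.1, 1), filters, scaling, limma-voom, a replicate block, 2-dose fits and leaving out each library.

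All members are named, with values per library for called ones and fixed examples; of each further list, up to 4 genes with the smallest adjusted p, and others where the text says so. Members and lists were chosen with earlier results of these data known. Coordinates are from RefSeq GRCh38.p14 and exon overlaps from GENCODE 29. Within each dose, libraries differed by more than sampling noise (chi-square per degree of freedom 1.96 to 7.51).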

Additional observations from a re-analysis of the deposited data

How the results depend on the processing

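The call counts at 1, 2.5, 10 and 100 µg/ml against 0 µg/ml and on the slope stayed within 1.5 times under other pseudocounts, filters, scaling, limma-voom and the replicate block. At 50 against 0 µg/ml the 1 called member became 4 by limma-voom, 3 with the replicate block and 2 when only these doses were fitted, and at 50 against 10 µg/ml limma-voom gave 2. The cause was not tested. Leaving out each library in turn gave 5 to 8 called members at 100 against 0 µg/ml, 0 to 2 at 50 against 0 µg/ml, 0 to 4 at 50 against 10 µg/ml and 12 to 15 slopes. SLC2A3, HK1 and PFKL kept their calls at 100 µg/ml in all 14 settings run for them. ENO2, BNIP3L and ADM gained calls at 100 µg/ml in 1, 1 and 2 settings. Same-numbered libraries at a dose and at 0 µg/ml had deviations correlated from -0.333 to 0.175, so the numbers were not taken as pairs, and the replicate block gave 9 at 100 µg/ml. With median-of-ratios scaling 18 in place of 17 members lay above 0, so directions of members near 0 are not firm. EGLN3, ANKRD37, ALDOC and PFKFB4 had the fewest reads among the listed members, and the part of depth in their results was not tested.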

Other observations

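Single libraries held the extremes of several members. In replicate 3 at 2.5 µg/ml, 6 of the 36 tested members had their lowest FPKM of the 18 libraries, 5 of them glycolytic enzymes, and 5 had their highest, 2 of them enzymes. HIF1A was among those at their highest, at 46.6 FPKM. That library also had the lowest sum of FPKM over all genes, 386396, where the others reached up to 413363. Replicate 3 at 10 µg/ml was lowest for 6 members and highest for 1, and replicate 1 at 1 µg/ml was lowest for 3 and highest for 6. Replicate 3 at 100 µg/ml was lowest for PFKL, PGAM1, PDK1, ADM, EGLN1 and P4HA1, all with a dose slope called down, and highest for 4 members.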
